A study of Mus musculus with 10 samples.

Results

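The clustered histone genes of the mouse are 65 of the 45882 gene IDs in these files. They are the protein-coding genes whose symbols begin with Hist1h, Hist2h, Hist3h or Hist4h, chosen by name and not by any measured value. The Hist1 cluster on chromosome 13 holds 52 of them, the Hist2 cluster on chromosome 3 holds 10, the Hist3 cluster on chromosome 11 holds 2 and chromosome 6 holds Hist4h4. By product, 6 genes encode the linker histone H1, 18 encode H2A, 16 encode H2B, 12 encode H3 and 13 encode H4. H2A, H2B, H3 and H4 are the core histones around which DNA is wrapped in the nucleosome, and H1 binds the DNA between nucleosomes. Most genes of the clusters are replication-dependent: they are transcribed mainly in S phase, when new DNA needs new nucleosomes, and most of their mRNAs end just past a stem-loop in place of a poly(A) tail. The stem-loop is bound by the protein Slbp, which takes part in processing, stability and translation of these mRNAs. Adult cardiac myocytes seldom divide, and variant histones made outside S phase, such as H3.3 and H1.0, replace much of the supply in such cells.

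Cardiac myocytes were isolated from left ventricles of C57BL/6 mice, and their RNA was sequenced as 10 libraries with a mouse number each. The groups were control (3 libraries), CTCF_knockout (4 libraries), whose gene for the DNA-binding architectural protein CTCF was targeted, and TAC (3 libraries). TAC, transverse aortic constriction, is an operation that narrows the aorta and raises the pressure against which the left ventricle pumps. Ages, the construct behind the CTCF deletion, the genotype of the TAC mice and any sham operation are not labelled. The labels name polyA RNA as the molecule, whereas the protocol describes removal of ribosomal RNA, so whether histone mRNAs without a poly(A) tail were kept in full cannot be told from the labels. Levels are in FPKM (fragments per kilobase of transcript, relative to all mapped fragments of the library), rescaled between libraries. They are per length, but most of these genes share sequence with another, which limits how well the levels of single genes can be set against each other.

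The stem-loop itself is shown first, because it sets these genes apart from nearly all others and because its letters differ by histone type. The pattern of GG, any 2 bases, CTTTT, any base, AG, any 2 bases and CC, searched on the transcript strand, was found in annotated transcripts of 42 of the 65 genes. It began 21 to 58 bases after the stop codon (median 31). Of 100266 protein-coding transcripts of other genes, 67 held it (0.0668%). The pieces below are from the annotation of build GRCm38, with the stem-loop in capitals, and they stand for the forms found.
Hist1h1c, chr13:23739507-23739532, plus strand: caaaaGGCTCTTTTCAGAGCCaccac
Hist1h2bg, chr13:23571838-23571863, plus strand: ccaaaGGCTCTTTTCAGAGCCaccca
Hist1h2bb, chr13:23747198-23747223, plus strand: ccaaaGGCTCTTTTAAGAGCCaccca
Hist1h3c, chr13:23745042-23745067, minus strand: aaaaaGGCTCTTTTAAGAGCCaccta
Hist1h4h, chr13:23531453-23531478, plus strand: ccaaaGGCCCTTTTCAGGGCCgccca
Hist1h4j, chr13:21735432-21735457, plus strand: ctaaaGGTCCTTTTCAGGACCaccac
The form of Hist1h1c and Hist1h2bg was the most frequent, with 24 genes of types H1, H2A, H2B and H3. The form of Hist1h2bb and Hist1h3c was found in 6 genes, namely Hist1h1t, Hist1h2bk, Hist1h2bb, Hist1h3f, Hist1h3e and Hist1h3c. The form of Hist1h4h was found in 7 genes, all of type H4, and that of Hist1h4j in Hist1h4j and Hist1h4b. The other forms were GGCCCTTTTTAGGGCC in Hist1h4i and Hist2h4, and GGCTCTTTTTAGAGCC in Hist2h2ac. All 11 H4 genes with the pattern thus carried a stem that differs from those of the other types. For 14 genes the listed transcript ends at the stop codon, so that no match says nothing about the mRNA.

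Promoters of 60 of the 65 genes were found in RefSeq (GRCm38.p6), as windows from 250 bases before to 50 bases after the transcript start. A CCAAT box (CCAAT, either strand) was found in 51 of the 60 (85.0%), against 37.4% of 32851 promoters of the same length. All 48 matched promoters of types H1, H2A, H2B and H3 held it and 3 of 12 H4 promoters did, those of Hist1h4d, Hist1h4c and Hist1h4a. A TATA box (TATAAA, either strand) was found in 58.3%, against 13.6% of all promoters. The octamer ATTTGCAT, a binding site of Oct1, was found in 20.0% (7 H2A and 5 H2B genes), against 1.74%. Letters from the middle of the CTCF motif (CCA, any 2 bases, AG, any 2 bases and GGCA) were found in 0 of the 60 windows on either strand and in 0.813% of all promoters, which says only that these letters are not in these windows. The 150 bases before the start are given for an H2B gene and an H3 gene with high fold changes in the knockout, an abundant H2B gene that also rose, and an abundant H4 gene that did not pass. Capitals mark the CCAAT box, the octamer and the TATA box on either strand.
Hist1h2bb, chr13:23746584-23746733, plus strand: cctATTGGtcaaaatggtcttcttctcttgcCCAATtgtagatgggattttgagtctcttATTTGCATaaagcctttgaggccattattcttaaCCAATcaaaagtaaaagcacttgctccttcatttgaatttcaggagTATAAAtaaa
Hist1h3c, chr13:23745522-23745671, minus strand: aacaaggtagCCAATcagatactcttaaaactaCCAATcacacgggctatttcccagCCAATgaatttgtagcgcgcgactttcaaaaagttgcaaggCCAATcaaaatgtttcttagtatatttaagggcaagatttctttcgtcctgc
Hist1h2bg, chr13:23571250-23571399, plus strand: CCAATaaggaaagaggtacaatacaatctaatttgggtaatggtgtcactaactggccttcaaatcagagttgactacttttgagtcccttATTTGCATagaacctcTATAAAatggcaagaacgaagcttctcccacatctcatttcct
Hist1h4h, chr13:23530894-23531043, plus strand: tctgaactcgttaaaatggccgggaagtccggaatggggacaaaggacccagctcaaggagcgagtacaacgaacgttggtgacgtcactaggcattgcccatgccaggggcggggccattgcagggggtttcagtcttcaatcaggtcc
Both H2B promoters show the octamer and the TATA box, the H3 promoter shows repeated CCAAT boxes, and the H4 promoter shows none of these letters. A match is a description of the letters and not a shown binding site.

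Ctcf, the targeted gene, lay at 8.48, 8.53 and 6.93 FPKM in the control libraries and at 2.91, 3.93, 2.64 and 4.25 FPKM in the knockout libraries, so the knockout mean was 43.0% of the control mean (log2 difference -1.03, limma, adjusted p = 0.000666). The files hold no read counts and the depth of the libraries is unknown, while the coverage listed per FPKM ranged from 3.90 to 6.09. Knockout replicate 4 stood apart: it was the highest of all 10 libraries for 35 of the 57 histone genes tested (61.4%), against 5.76% of all genes tested, and it alone among the knockouts came from a male mouse, with Ddx3y at 18.8 FPKM and Xist at 0.0225 FPKM. The other males were control replicate 2 and TAC replicates 1 and 3. Defining myocyte markers were abundant, with sums over 8 genes of 30180 to 34967 FPKM in control, 22511 to 30812 in knockout and 24155 to 31111 in TAC libraries, and 5 of the 8 fell and 0 rose in the knockout (limma; 5 lower and 0 higher at an unadjusted p under 0.05). The sum of 10 fibroblast markers was 81.9 to 152 FPKM in control, 179 to 267 in knockout and 237 to 265 in TAC libraries, and 5 of the 9 tested rose in each of these groups. The sum of 10 endothelial markers was 86.7 to 115, 106 to 178 and 123 to 185 FPKM, and that of 12 macrophage and leukocyte markers 73.4 to 104, 85.1 to 138 and 120 to 132 FPKM. Smooth muscle and pericyte markers (8 genes) summed to 76.1 to 110, 51.4 to 69.2 and 65.0 to 71.0 FPKM, erythroid markers (6 genes) to 294 to 1153, 125 to 620 and 962 to 1692 FPKM, and lymphocyte markers (9 genes) to at most 1.65 FPKM. In the knockout, 3 of 10 endothelial markers rose, 2 of 11 tested macrophage and leukocyte markers rose and 1 fell, 1 of 7 tested smooth muscle and pericyte markers rose and 1 fell, and of 5 tested erythroid markers 0 were called (limma; 0 at an unadjusted p under 0.05). Over all genes tested, 9.38% were called higher and 10.2% lower in the knockout, and 7.58% and 6.85% in TAC libraries. In no list was a marker at 0 in every library. In bulk RNA, more cells of a type and more RNA per cell cannot be told apart, and the part of other cell types in the results below was not tested.

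Of the 65 genes, 64 were above 0 in some library and Hist1h2aa was listed at 0 in all of them. The filter on a mean of at least 1 FPKM left 57 genes to test. The 8 others were Hist1h1t, Hist1h2an, Hist1h2ah, Hist1h2ak, Hist1h2aa, Hist1h2bq, Hist3h2ba and Hist2h3c1, with means of at most 0.975 FPKM. Expression was concentrated in a few genes. In control libraries the 8 highest were Hist1h2bc (58.2 ± 5.94 FPKM, SD, n = 3), Hist1h4h (53.5 ± 7.19), Hist1h4d (47.5 ± 11.7), Hist1h1c (41.0 ± 7.96), Hist1h4c (33.1 ± 4.29), Hist2h2aa1 (22.3 ± 1.95), Hist2h2aa2 (17.6 ± 1.40) and Hist1h1e (14.5 ± 3.84). Neighbours in this order lay within their spread down to Hist1h4c, and so did Hist2h2aa2 and Hist1h1e. These 8 genes held 70.3% to 71.3% of the summed level of all 65 in the controls, 57.1% to 68.3% in the knockouts and 63.8% to 71.4% in TAC libraries. By summed level H3 was the lowest type, at a mean of 14.3 FPKM in control, with a control mean of at most 2.89 FPKM for any gene. By the median control mean of the tested genes H2A was lower, at 0.864 FPKM against 1.08 FPKM for H3.

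The summed level of all 65 genes was 344, 422 and 452 FPKM in control, 567, 531, 647 and 603 in knockout and 406, 443 and 487 in TAC libraries. All 4 knockout libraries thus lay above all controls and all TAC libraries, and TAC and control libraries overlapped. The knockout mean was 1.45 times the control mean for all genes together, 1.78 times for H1, 1.60 for H2A, 1.35 for H2B, 2.25 for H3 and 1.26 for H4. Without knockout replicate 4 the ratios were 1.43 for all genes and 1.84 for H3. H4 held 40.3% to 45.4% of the summed level in controls, 36.1% to 38.9% in knockouts and 35.2% to 37.9% in TAC libraries.

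**Figure D1:**
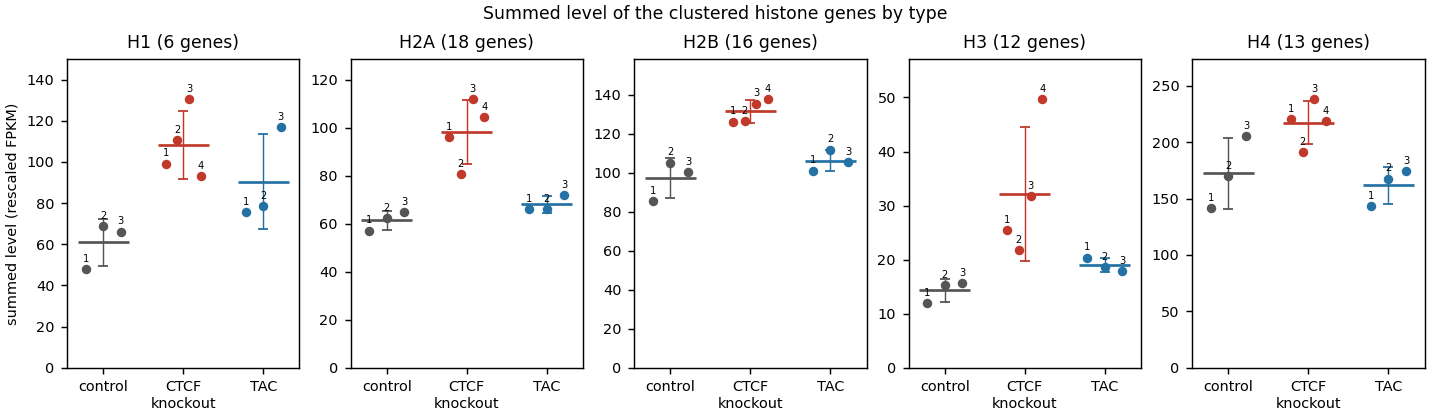
Summed rescaled FPKM of each histone type (y axis, from 0) in each library (points, numbered by replicate), with group means (lines) and SD (bars). The knockout libraries lie above all controls for H1, H2A, H2B and H3, whereas for H4 knockout replicate 2 at 191 FPKM lies below control replicate 3 at 205 FPKM.

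The knockout libraries were first set against the controls, to ask how histone mRNA differs in myocytes with reduced Ctcf. Of the 57 histone genes tested, 34 rose, 0 fell and 23 did not pass (limma on log2(FPKM + 1), Benjamini-Hochberg adjusted p under 0.05). At an unadjusted p under 0.05, 45 were higher and 0 lower. Among all 11339 genes tested, 19.6% were called, 9.38% as higher and 10.2% as lower. The median log2 difference of the 57 genes was 0.59, and that of all genes -0.02. In 38 of the 57 genes all 4 knockout libraries lay above all 3 controls, and in 0 below, against 13.3% and 16.0% of all genes tested. By type, 4 of 5 H1, 11 of 14 H2A, 9 of 14 H2B, 7 of 11 H3 and 3 of 13 H4 genes rose, and the difference between types was not tested. Of these tested genes, 2 H1, 7 H2A, 1 H3 and 1 H4 gene passed the filter on the mean only through the knockout libraries. With no filter, 3 of 6 H1, 5 of 17 H2A and 7 of 16 H2B genes rose. In that fit 4 of 12 H3 and 0 of 13 H4 genes rose (limma). At an unadjusted p under 0.05 it gave 5 H1, 15 H2A, 11 H2B, 10 H3 and 5 H4 genes as higher and 0 as lower. By cluster, 29 of 46 Hist1 genes and 5 of 9 Hist2 genes rose, and the single tested genes of Hist3 (Hist3h2a) and Hist4 (Hist4h4) did not pass.

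These counts depend on 2 choices and on the libraries used. So do the calls over all genes, which ranged from 1085 to 2273 across the settings. Of the 57 genes, 11 reached the mean of 1 FPKM only through the knockout libraries and 9 of those are among the 34, and with no filter on the mean 19 of 64 genes rose. Without knockout replicate 4, 28 of 54 rose, without control replicates 1, 2 or 3 in turn 23, 25 and 29, with sex as a term in the fit 38 of 57, and among female libraries only (2 controls and 3 knockouts) 11 of 57. All log2 differences are of log2(FPKM + 1), and for genes near or under 1 FPKM they are smaller than the change in FPKM itself. Each library came from its own mouse, and p-values measure the spread between these 10 libraries.

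**Figure D2:**
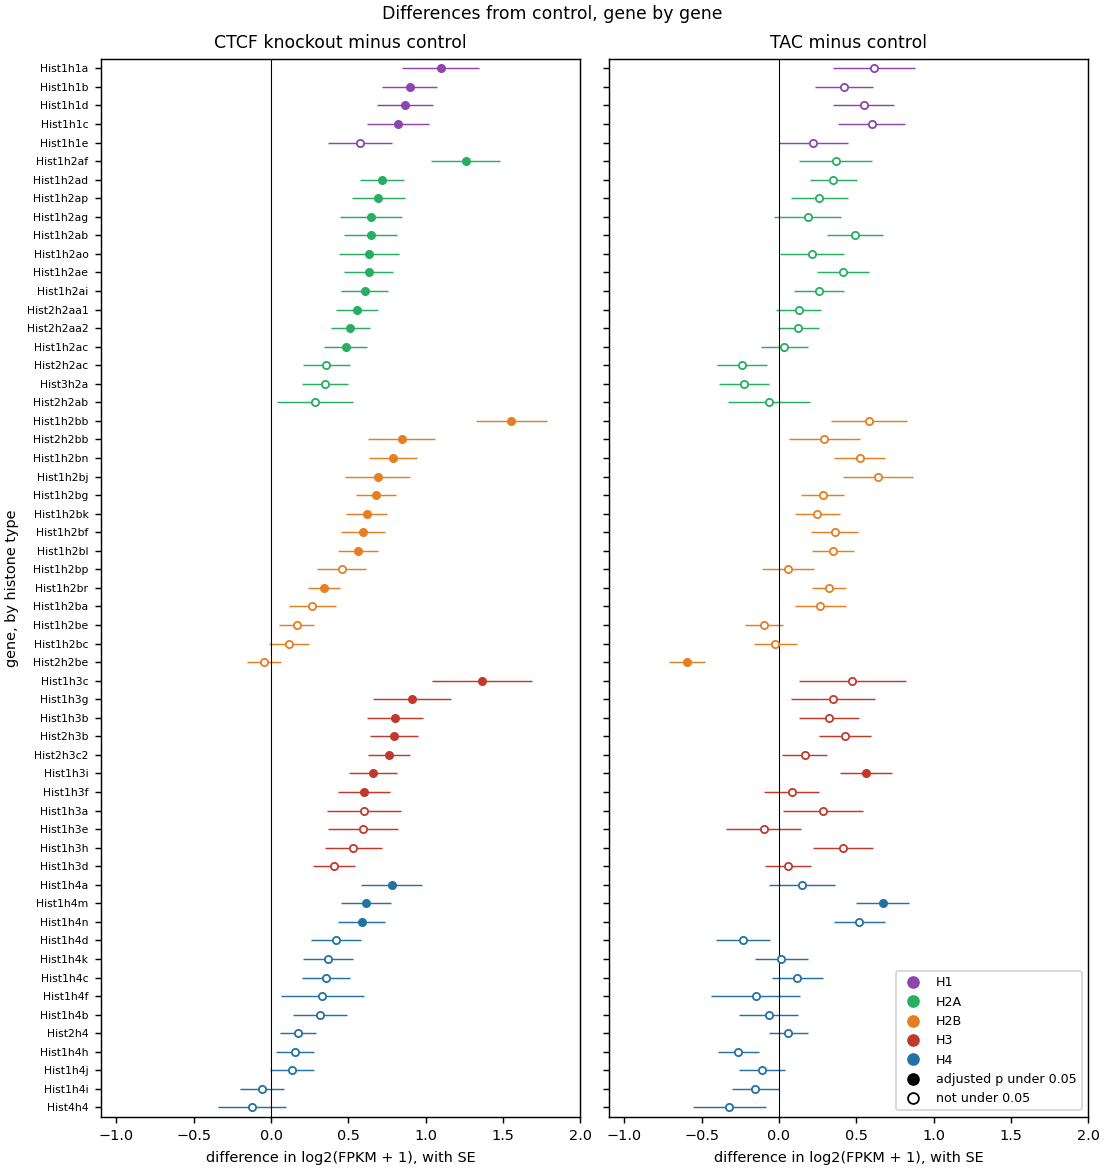
Difference in log2(FPKM + 1) from control (x axis, with SE) for the 57 tested genes in the CTCF knockout (left) and TAC (right), by histone type. Filled points passed the test: 34 on the left, all above 0, and 3 on the right, of which Hist2h2be lies below 0.

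Of the 5 linker histone genes tested, Hist1h1a, Hist1h1b, Hist1h1c and Hist1h1d rose in the knockout and Hist1h1e did not pass. Hist1h1c, which encodes H1.2 and was the most abundant H1 gene (ENSMUSG00000036181, chr13:23738808-23740367, plus strand), lay at 32.4, 48.0 and 42.7 FPKM in control, 70.3, 77.0, 85.7 and 59.3 in knockout and 48.0, 57.5 and 85.9 in TAC libraries. Every knockout library lay above every control, and TAC replicate 3 lay as high as the highest knockout. Its log2 difference between knockout and control was 0.82 ± 0.20 (SE; adjusted p = 0.0143), a call lost in the fit without the filter (adjusted p = 0.0523) and without control replicate 1 (adjusted p = 0.0526). Hist1h1d, which encodes H1.3, was 3.97, 4.68 and 4.03 FPKM in control and 6.59, 8.27, 11.7 and 8.24 in knockout libraries. It rose by 0.87 (adjusted p = 0.0068) without overlap. Hist1h1e, which encodes H1.4, was 10.3, 15.2 and 17.9 FPKM in control and 19.4, 21.7, 28.3 and 18.2 in knockout libraries. Its groups did not overlap, but the difference of 0.58 did not pass (adjusted p = 0.0746).

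Hist1h1a and Hist1h1b encode H1.1 and H1.5, and they share no stretch of 100 bases with another gene, unlike most core histone genes. Hist1h1a (ENSMUSG00000049539, chr13:23763666-23764406, plus strand) was 0.606, 0.356 and 0.654 FPKM in control, 1.28, 1.61, 2.82 and 4.12 in knockout and 1.18, 2.00 and 0.970 in TAC libraries. All knockout libraries were higher than all controls, with replicate 4 the highest. The log2 difference was 1.10 ± 0.25 (SE; adjusted p = 0.0095), and 0.88 without knockout replicate 4 (adjusted p = 0.0160). Hist1h1b was 0.615, 0.665 and 0.620 FPKM in control and 1.51, 1.80, 1.93 and 3.15 in knockout libraries, a log2 difference of 0.90 (adjusted p = 0.00463). Both genes reached the mean of 1 FPKM only through the knockout libraries, and with no filter on the mean their adjusted p-values were 0.0475 and 0.0253 (limma).

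Of the 14 H2A genes tested, 11 rose, among them Hist2h2aa1 and Hist2h2aa2, while Hist2h2ac, Hist2h2ab and Hist3h2a did not pass. Of the 9 from the Hist1 cluster, 6 (Hist1h2ab, Hist1h2ad, Hist1h2ae, Hist1h2af, Hist1h2ag and Hist1h2ai) were tested only because of their level in the knockout libraries. With no filter on the mean, 3 of 12 Hist1 H2A genes above 0 rose (limma; 12 higher and 0 lower at an unadjusted p under 0.05). The abundant Hist2h2aa1 (ENSMUSG00000064220, chr3:96245497-96246082, plus strand) was 20.0, 23.1 and 23.6 FPKM in control, 34.6, 28.3, 40.5 and 30.0 in knockout and 22.4, 23.5 and 27.5 in TAC libraries. The knockouts lay above all other libraries, and the log2 difference from control was 0.55 ± 0.14 (SE; adjusted p = 0.0145). Its neighbour and near-copy Hist2h2aa2 had a control mean of 17.6 ± 1.40 FPKM (SD, n = 3) and a knockout mean of 25.6 ± 3.46 (SD, n = 4) and rose (limma, adjusted p = 0.0136), but reads of this pair cannot be assigned with certainty. The third of the abundant H2A genes, Hist2h2ac, was 9.23, 7.80 and 6.52 FPKM in control and 9.80, 8.16, 10.7 and 12.9 in knockout libraries, which overlapped (adjusted p = 0.126).

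The H2A genes of the Hist1 cluster were low in control libraries, and Hist1h2af had the highest fold change among them. Hist1h2af (ENSMUSG00000061991, chr13:23533906-23534304, plus strand) was 0.464, 0.598 and 0.282 FPKM in control, 1.57, 1.90, 2.76 and 4.06 in knockout and 1.39, 0.723 and 0.564 in TAC libraries. Knockout libraries lay above all others, and the log2 difference from control was 1.26 ± 0.22 (SE; adjusted p = 0.00236). With no filter its adjusted p was 0.0174. An annotated miRNA on the other strand overlaps Hist1h2af and had a mean of 8.41 FPKM, against 1.43 FPKM for Hist1h2af. The remaining 8 tested, namely Hist1h2ad, Hist1h2ap, Hist1h2ag, Hist1h2ab, Hist1h2ao, Hist1h2ae, Hist1h2ai and Hist1h2ac, rose by 0.48 to 0.72. The calls of Hist1h2ac and Hist1h2ag held in 9 and 6 of 18 alternatives, and both were lost when any control library or knockout replicate 1, 3 or 4 was left out. Hist1h2an, Hist1h2ah and Hist1h2ak stayed under the filter.

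H2B genes held the clearest rise and the most abundant gene that did not pass. Hist1h2bb (ENSMUSG00000075031, chr13:23746734-23747241, plus strand) was 1.75, 2.64 and 1.88 FPKM in control, 7.06, 5.90, 7.04 and 13.7 in knockout and 4.38, 3.88 and 2.68 in TAC libraries. The 3 groups did not overlap, in the order control, TAC and knockout. The knockout mean was 4.04 times the control mean, and the log2 difference was 1.56 ± 0.23 (SE; adjusted p = 0.000821), or 1.32 without knockout replicate 4 (adjusted p = 0.000469). Hist1h2bg (ENSMUSG00000058385, chr13:23571396-23572013, plus strand) was 9.50, 14.1 and 11.4 FPKM in control, 20.1, 17.0, 19.8 and 19.5 in knockout and 13.1, 14.2 and 15.5 in TAC libraries. The knockout libraries were close to each other and above all the rest, with a log2 difference from control of 0.68 ± 0.13 (SE; adjusted p = 0.00363).

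Hist1h2bc, the most abundant histone gene in controls (ENSMUSG00000018102, chr13:23684199-23692908, plus strand), was 51.4, 62.0 and 61.2 FPKM in control, 64.0, 64.9, 71.2 and 53.2 in knockout and 50.9, 62.7 and 58.2 in TAC libraries. The groups overlapped, with knockout replicate 4 the lowest of its group, and the log2 difference of 0.12 ± 0.13 (SE) did not pass (adjusted p = 0.576). The annotation gives it a spliced transcript that extends downstream of the coding exon. Hist1h2be was 4.27 ± 0.453 FPKM (SD, n = 3) in control and 4.93 ± 0.751 (SD, n = 4) in knockout libraries (limma, adjusted p = 0.354). The other H2B genes that rose were Hist2h2bb (log2 difference 0.84), Hist1h2bn (0.79), Hist1h2bj (0.69), Hist1h2bk (0.62), Hist1h2bf (0.59), Hist1h2bl (0.56) and Hist1h2br (0.34). Hist1h2br was lost without any single control library, Hist1h2bj without control replicate 1 or 3, Hist2h2bb without control replicate 2 or 3 and Hist1h2bf without control replicate 3. Hist1h2bp, Hist1h2ba and Hist2h2be did not pass.

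**Figure D3:**
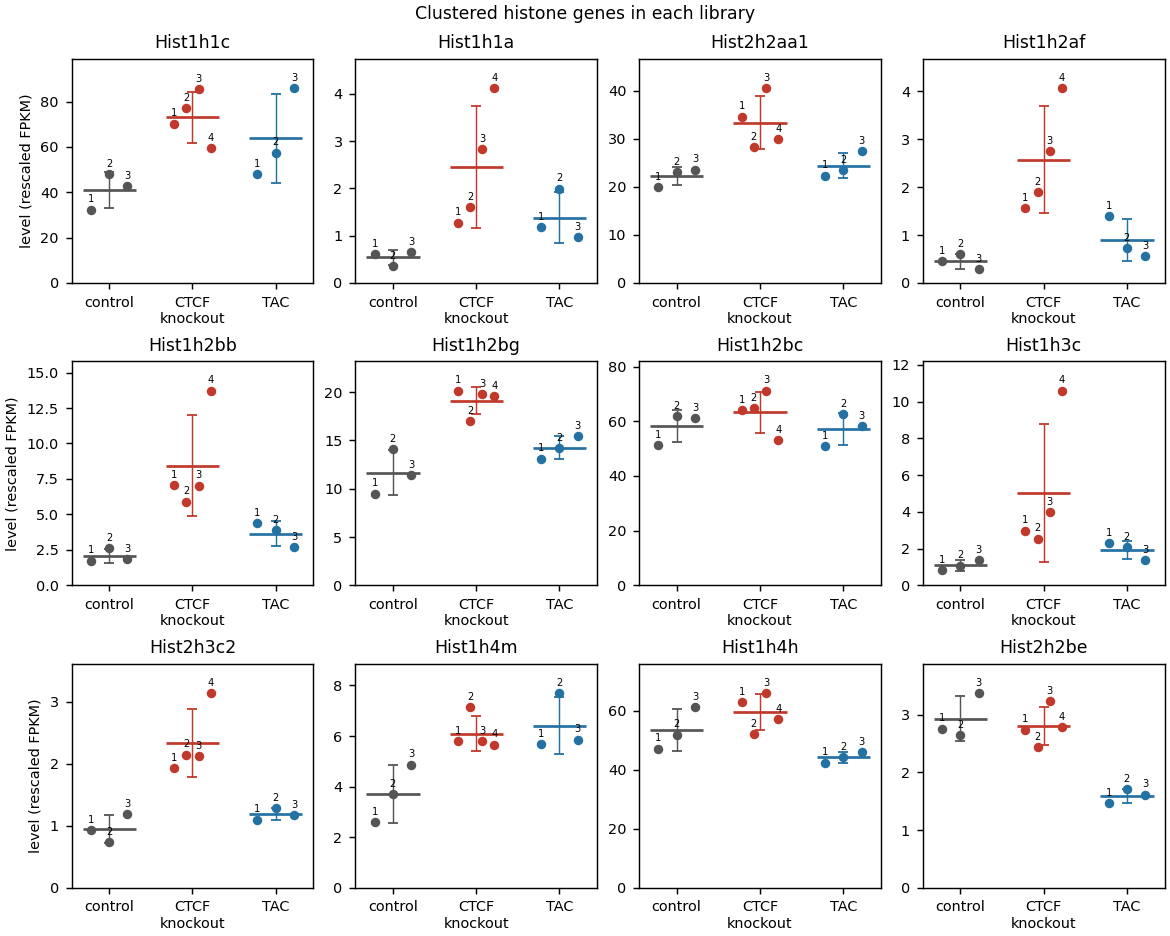
Rescaled FPKM (y axis, from 0) of 12 clustered histone genes in each library (points, numbered by replicate), with group means (lines) and SD (bars). Hist1h2bb separates the 3 groups, Hist1h2bc and Hist1h4h overlap between control and knockout, and Hist2h2be is lowest in the TAC libraries at 1.46 to 1.71 FPKM.

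For every one of the 12 H3 genes knockout replicate 4 was the highest of the 10 libraries, among them Hist2h3c1, whose values lay near 0 throughout. Hist1h3c (ENSMUSG00000069310, chr13:23744973-23745602, minus strand) was 0.809, 1.07 and 1.36 FPKM in control, 2.97, 2.54, 3.97 and 10.6 in knockout and 2.31, 2.06 and 1.35 in TAC libraries. All knockouts were above all controls, and replicate 4 was far above the other knockouts. The log2 difference was 1.37 ± 0.32 (SE; adjusted p = 0.0121) with all libraries and 0.99 without that replicate (adjusted p = 0.00331), a call lost in the fit without the filter (adjusted p = 0.0599). Hist2h3c2 (ENSMUSG00000081058, chr3:96238108-96239127, minus strand) was 0.933, 0.739 and 1.19 FPKM in control, 1.93, 2.14, 2.12 and 3.14 in knockout and 1.10, 1.29 and 1.17 in TAC libraries. Its knockout libraries lay above all others, with a log2 difference from control of 0.76 ± 0.14 (SE; adjusted p = 0.0025), called in all 18 alternatives. Hist2h3c2 shares a stretch of at least 100 bases with Hist2h3c1 and with Hist2h3b. How reads were divided between these genes is not known.

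The other H3 genes that rose were Hist1h3g (log2 difference 0.91), Hist1h3b (0.80), Hist2h3b (0.80), Hist1h3i (0.66) and Hist1h3f (0.60). Hist1h3g was under the filter without knockout replicate 4, and the call of Hist1h3f was lost without it and without control replicate 1 or 3. The most abundant H3 gene, Hist1h3e, was 1.83, 3.24 and 3.60 FPKM in control and 4.91, 2.76, 5.90 and 6.16 in knockout libraries, and knockout replicate 2 lay among the controls. Its log2 difference of 0.59 did not pass (adjusted p = 0.0887). Hist1h3a, Hist1h3h and Hist1h3d did not pass, with differences of 0.60, 0.53 and 0.41.

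None of the 3 abundant H4 genes passed. Hist1h4h (ENSMUSG00000060981, chr13:23531050-23531519, plus strand) was 47.3, 52.0 and 61.4 FPKM in control, 63.1, 52.1, 66.1 and 57.2 in knockout and 42.4, 44.2 and 46.0 in TAC libraries. Control and knockout libraries overlapped, with a log2 difference of 0.15 ± 0.12 (SE; adjusted p = 0.418). Hist1h4d, which shares no stretch of 100 bases with another gene, was 36.0, 47.2 and 59.3 FPKM in control and 62.3, 60.5, 67.7 and 60.6 in knockout libraries. These groups did not overlap, and the difference of 0.42 did not pass (adjusted p = 0.0892). Hist1h4c was 33.1 ± 4.29 FPKM (SD, n = 3) in control and 42.6 ± 5.22 (SD, n = 4) in knockout libraries (limma, adjusted p = 0.13).

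The 3 H4 genes that rose were Hist1h4a (log2 difference 0.78, adjusted p = 0.0174), Hist1h4m (0.61, adjusted p = 0.0198) and Hist1h4n (0.59, adjusted p = 0.0186), and each call was lost without control replicate 1. Hist1h4m (ENSMUSG00000069306, chr13:21811746-21812147, plus strand) was 2.59, 3.69 and 4.87 FPKM in control, 5.79, 7.16, 5.79 and 5.66 in knockout and 5.68, 7.70 and 5.86 in TAC libraries, so both other groups lay above all controls. Hist1h4k, Hist1h4f, Hist1h4b, Hist2h4, Hist1h4j, Hist1h4i and Hist4h4 did not pass, with differences from -0.12 to 0.37. At an unadjusted p under 0.05, 6 of the 13 H4 genes were higher and 0 lower. With no filter on the mean, limma called 0 of the 13 (5 higher and 0 lower at an unadjusted p under 0.05).

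The fold change was set against level, sequence sharing and gene order. Of 44 tested genes with a control mean under 5 FPKM, 29 rose, and of 13 with 5 FPKM or more, 5 rose (Hist1h1c, Hist2h2aa1, Hist2h2aa2, Hist1h2bg and Hist1h4n). All 11 genes that were tested only through their knockout levels are among the 44, and of the other 33, 20 rose. In this main fit 9.38% of all genes tested were called higher. With no filter, 16 of 51 and 3 of 13 rose (limma; 37 and 9 higher and 0 lower at an unadjusted p under 0.05). The control mean also enters both the level and the ratio, so this is a description. A stretch of at least 100 bases was shared with another gene by 58 of the 65 genes, and their levels are uncertain gene by gene because the division of shared reads is not known. Of the 52 tested among these, 32 rose, and of the 5 others, Hist1h1a and Hist1h1b rose while Hist1h4d, Hist2h2be and Hist2h4 did not pass.

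**Figure D4:**
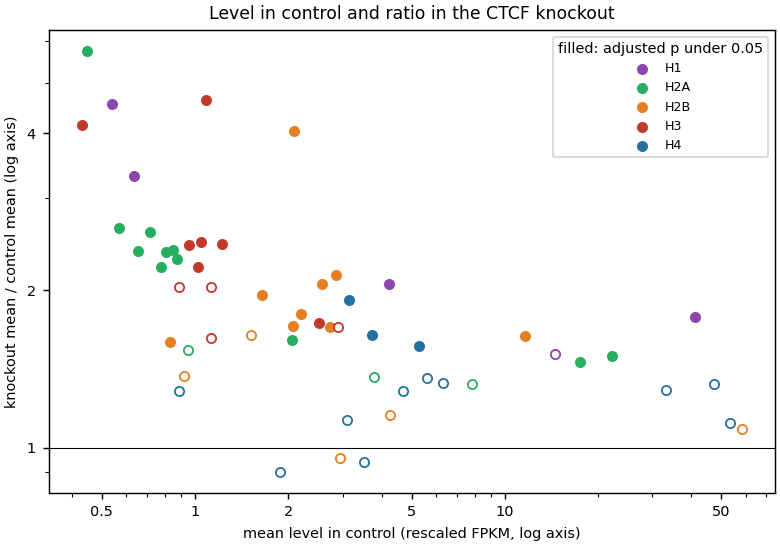
Mean level in control (x axis, rescaled FPKM, log scale) against the ratio of knockout to control means (y axis, log scale) for the 57 tested genes, coloured by type, with filled points for adjusted p under 0.05. The ratios reach 5.74 for Hist1h2af at a low control level, and genes above 30 FPKM lie between 1.09 for Hist1h2bc and 1.78 for Hist1h1c.

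H2A and H2B genes often lie head to head, so that a single stretch of DNA is the promoter region of both. There were 12 such pairs, with 236 to 306 bases between the starts of the listed transcripts. Both members rose in 5 pairs, a single member in 4 pairs and neither in 3, but both members were tested in only 7 pairs. The members not tested in the main fit were Hist1h2bq, Hist1h2ak, Hist1h2ah, Hist1h2an and Hist1h2aa, the last at 0 in every library. With no filter, 12 of 12 Hist1 H2A genes above 0 were higher at an unadjusted p under 0.05 (limma). Hist1h2ak, Hist1h2ah and Hist1h2an are among those, and 3 of the 12 rose after adjustment. For Hist1h2bq all knockout libraries lay above all controls. In the pairs where both rose, Hist1h2ag, Hist1h2ad, Hist1h2ai and Hist1h2ae were tested only through their knockout levels. The tally is thus set in part by the filter, and 9.38% of all genes tested were called higher. Hist1h2ae and Hist1h2bg rose together (log2 differences 0.63 and 0.68), although Hist1h2bg had 11.7 FPKM in control and Hist1h2ae 0.656 FPKM. Hist1h2ac and Hist1h2bc differed: Hist1h2ac was 2.13, 2.02 and 2.03 FPKM in control and 3.65, 2.32, 3.57 and 3.73 in knockout libraries and rose by 0.48 (adjusted p = 0.0314), whereas its partner did not pass.

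The genes also differed in where the listed transcript with the highest mean level ends. In 30 genes it ended within 100 bases after the stem-loop, and 19 of the 29 tested rose. In 11 genes it ran more than 100 bases past the stem-loop, and 3 of the 9 tested rose, namely Hist1h1c, Hist1h3f and Hist2h3c2. In 3 genes it was spliced (1 of 2 tested rose, Hist1h2br) and in 21 it held no stem-loop pattern (11 of 17 tested rose). Hist1h2be is among these 21, although its other listed transcripts, at 1.31 and 1.55 FPKM against 1.57 FPKM, hold the pattern. Some of these genes were tested only through their knockout levels. They were Hist1h2ab, Hist1h2ad, Hist1h2ae and Hist1h2ag ending near the stem-loop, and Hist2h4 running past it. Without the pattern they were Hist1h1a, Hist1h1b, Hist1h2af, Hist1h2ai, Hist1h3g and Hist2h2ab. The counts are thus set in part by the filter, and 9.38% of all genes tested were called higher. The difference between these groups was not tested. Another gene overlapped 23 of the 65, mostly annotated miRNAs on the other strand, and whether the counting used strand is not given in the sources used here. These miRNA entries had means of 8.41 FPKM over Hist1h2af, 37.3 over Hist2h2aa1 and 33.4 over Hist2h2aa2. Those over Hist1h2ac and Hist1h2ae were listed at 0. How reads were divided between such entries and the histone genes is not known.

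Of 24 tested genes for histone supply and 3' end processing, Lsm11 and Daxx rose, Cstf2 fell and 21 did not pass, with a median log2 difference of -0.04. Over all genes tested, 9.38% were called higher and 10.2% lower. Lsm11, a subunit of the U7 particle that cuts histone pre-mRNA, was 0.636, 0.642 and 0.901 FPKM in control and 1.72, 2.54, 2.31 and 1.59 in knockout libraries, without overlap (log2 difference 0.81, adjusted p = 0.00208). Daxx, a chaperone of H3.3, rose by 0.35 (adjusted p = 0.0303), and Cstf2, a subunit of the cleavage stimulation factor, fell by 0.47 (adjusted p = 0.0279). Slbp, which binds the stem-loop, was 5.61, 4.63 and 5.17 FPKM in control and 4.55, 4.80, 5.45 and 5.39 in knockout libraries, and these overlapped (log2 difference -0.02, adjusted p = 0.926). Npat, the coactivator of the histone clusters, differed by -0.04 (adjusted p = 0.859). Both were named after their values were seen.

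Of 10 tested variant and replication-independent histone genes, Cenpa, H3f3b and H2afj rose, 0 fell and 7 did not pass (limma; 4 higher and 0 lower at an unadjusted p under 0.05). Over all genes tested, 9.38% were called higher and 10.2% lower. Cenpa, the H3 variant of centromeres, was 7.94, 11.1 and 9.82 FPKM in control, 26.3, 29.9, 33.3 and 28.6 in knockout and 16.7, 20.4 and 20.0 in TAC libraries. The groups did not overlap, and the differences from control were 1.53 in knockout (adjusted p = 2.67e-05) and 0.92 in TAC libraries (adjusted p = 0.00119). H3f3b, which encodes H3.3, rose by 0.61 (adjusted p = 0.0263), while H3f3a, which encodes the same protein, differed by -0.26 (adjusted p = 0.221). H1f0, which encodes H1.0, differed by 0.12 (adjusted p = 0.57). H3f3a and H1f0 were named after their values were seen.

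Genes of DNA replication and of mitosis were measured beside the histone genes, since replication-dependent histone mRNA is tied to S phase. Of 31 genes of S phase and DNA replication found, 12 were under the filter. Among the 19 tested, Rrm2, Mcm6 and Mcm3 rose, Dut fell and 15 did not pass (limma; 5 higher and 1 lower at an unadjusted p under 0.05). The shares of all genes tested were 9.38% called higher and 10.2% lower. With no filter, 4 of the 31 rose (limma; 12 higher and 1 lower at an unadjusted p under 0.05). Rrm2 and Mcm3 were tested only through their level in the knockout libraries, and with no filter their adjusted p-values were 0.0403 and 0.0681 (limma). Rrm2, the S-phase subunit of ribonucleotide reductase, was 0.308, 0.698 and 0.429 FPKM in control, 2.21, 2.30, 2.98 and 10.5 in knockout and 1.25, 0.959 and 0.802 in TAC libraries. As with Hist1h3c, all knockouts lay above all controls and replicate 4 was far above the rest (log2 difference 1.67, adjusted p = 0.00671). Mcm6 and Mcm3, subunits of the replicative helicase, rose by 0.91 (adjusted p = 0.0106) and 0.70 (adjusted p = 0.0192), and Dut, which removes dUTP, fell by 0.86 (adjusted p = 0.00129). The list summed to 64.7 to 72.0 FPKM in control, 60.2 to 77.7 in knockout replicates 1 to 3, 106 in replicate 4 and 49.3 to 58.5 in TAC libraries, so the sum of replicates 1 to 3 overlapped the controls.

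Of the 22 mitosis genes, 13 were under the filter. The 8 that rose were tested only through their level in the knockout libraries, so their count is set in part by the filter, and the single other gene tested, Cenpf, did not pass. With no filter on the mean, 6 of the 22 rose (20 higher and 1 lower at an unadjusted p under 0.05). Ube2c, a ubiquitin-conjugating enzyme of the anaphase-promoting complex, rose by 2.28 (adjusted p = 0.00067), Cdk1, the kinase of mitotic entry, by 1.88 (adjusted p = 0.00219), Top2a, a topoisomerase, by 1.68 (adjusted p = 0.00403) and Ccnb1, cyclin B1, by 1.31 (adjusted p = 0.0131), and with no filter these adjusted p-values were 0.00901, 0.0186, 0.0286 and 0.0605 (limma). The 22 genes of the list summed to 6.37 to 10.5 FPKM in control, 25.0 to 27.8 in knockout replicates 1 to 3, 88.5 in replicate 4 and 8.80 to 17.5 in TAC libraries. Clustered histone genes under 5 FPKM in control, 52 in all, summed to 70.3 to 90.1, 124 to 153, 199 and 96.8 to 110 FPKM in the same order. Both sums were thus highest in replicate 4, while the 13 histone genes of 5 FPKM or more summed to 404 FPKM there, the lowest of the 4 knockouts. The part of dividing cells, of any type, in the histone levels was not tested.

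**Figure D5:**
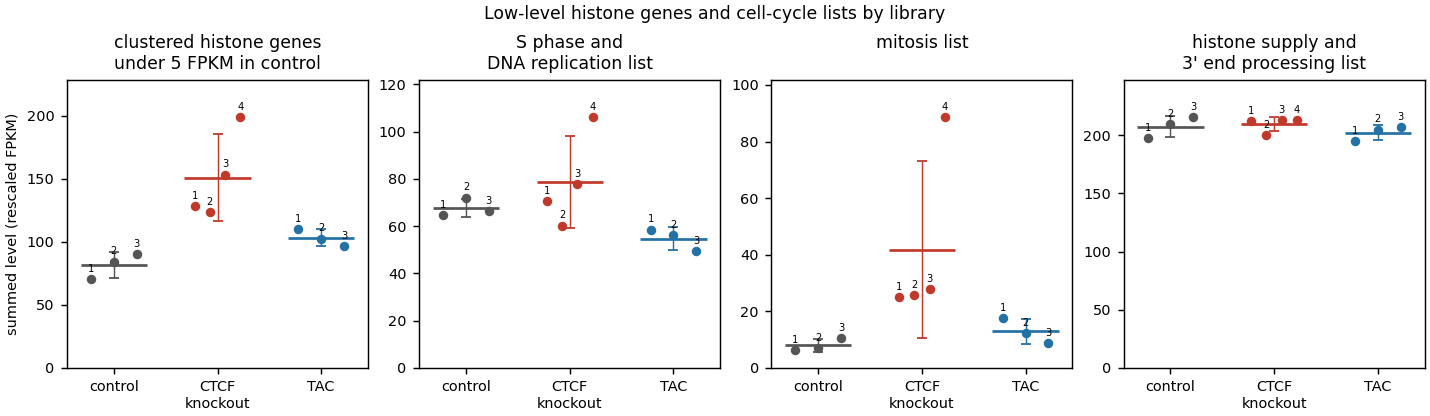
Summed rescaled FPKM (y axis, from 0) of the 52 histone genes under 5 FPKM in control and of 3 lists of cell-cycle and histone-processing genes, by library (points, numbered by replicate), with group means (lines) and SD (bars). Knockout replicate 4 is highest in the first 3 panels, at 199, 106 and 88.5 FPKM, and the 10 libraries overlap in the last.

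The comparison of TAC with control libraries asks how the same genes differ under pressure overload. Of the 57 genes, Hist1h3i and Hist1h4m rose, Hist2h2be fell and 54 did not pass, while 14.4% of all genes tested were called, 7.58% as higher and 6.85% as lower. The median log2 difference was 0.25, against -0.01 over all genes, and 43 of the 57 differences were above 0. In 18 genes all TAC libraries lay above all controls and in 2, Hist2h2be and Hist1h4h, below, against 15.0% and 15.4% of all genes tested. Hist1h3i was lost without any single control or TAC library or knockout replicate 3, and Hist1h4m without control replicate 1 or 2 or TAC replicate 2.

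Hist2h2be (ENSMUSG00000068854, chr3:96221119-96223738, plus strand) encodes an H2B and shares no stretch of 100 bases with another gene. It was 2.76, 2.65 and 3.38 FPKM in control, 2.74, 2.44, 3.24 and 2.79 in knockout and 1.46, 1.71 and 1.62 in TAC libraries. The TAC libraries lay below all others, and control and knockout overlapped. The log2 difference between TAC and control was -0.59 ± 0.12 (SE; adjusted p = 0.00609), called in 17 of 18 alternatives, the exception being female libraries only (1 TAC library; adjusted p = 0.194). Hist1h3i was 1.08, 1.04 and 0.950 FPKM in control, 1.79, 1.62, 2.26 and 3.39 in knockout and 2.13, 2.00 and 1.85 in TAC libraries, a log2 difference between TAC and control of 0.56 (adjusted p = 0.0431) that was called in 7 of 18 alternatives. Hist1h4m rose by 0.67 in TAC libraries (adjusted p = 0.0228), called in 12 of 18.

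H1 genes were higher in TAC than in control libraries by 0.22 to 0.61 on the log2 scale, and limma called 0 of the 5 (4 higher at an unadjusted p under 0.05). H1 sums were 48.0, 68.9 and 66.1 FPKM in control and 75.8, 78.4 and 117 in TAC libraries, without overlap. The median log2 difference of the H4 genes was -0.07, and their sums of 142 to 205 FPKM in control and 143 to 174 FPKM in TAC libraries overlapped. Of 24 tested supply genes and 9 tested mitosis genes, limma called 0 in TAC libraries (2 and 1 higher, 4 and 1 lower at an unadjusted p under 0.05). In the S phase list Dut fell by 1.06 (adjusted p = 0.000769) and 18 of 19 did not pass. Of the variant histones Cenpa rose and H2afv, an H2A.Z form, fell by 0.45 (adjusted p = 0.0304).

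Set directly against each other, knockout libraries held higher levels than TAC libraries for 56 of the 57 genes, with a median log2 difference of 0.37 against -0.02 over all genes. Of these, Hist1h2bb, Hist2h2be and Hist2h3c2 passed, 0 were lower (limma; 31 higher and 0 lower at an unadjusted p under 0.05) and 54 did not pass. Of all genes tested, 3.18% were called, 1.46% as higher and 1.72% as lower. Groups did not overlap in 19 genes, all higher in the knockout, against 7.48% higher and 10.2% lower over all genes tested. The differences were 0.97 for Hist1h2bb (adjusted p = 0.0454), 0.55 for Hist2h2be (adjusted p = 0.0227) and 0.60 for Hist2h3c2 (adjusted p = 0.0381). The calls came down to 0 when knockout replicate 3 or any TAC library was left out (limma; 19 to 27 higher and 0 lower at an unadjusted p under 0.05), and none of these 3 passed without knockout replicate 1. In the same comparison Ube2c was the single mitosis gene called (higher), with 8 of 9 tested higher at an unadjusted p under 0.05, and 0 of 19 S phase genes were called by limma, with 8 higher and 0 lower at that level. All 5 tested erythroid markers were lower in the knockout libraries (median log2 difference -2.32). The part of other or dividing cells in these differences was not tested.

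Close relatives outside the set were measured in the same files. A gene ID without a symbol lies at the annotated position of Hist1h2bh and was higher in knockout than in control libraries by 0.65 (adjusted p = 0.0191), and another at Hist1h2bm differed by 0.40 (adjusted p = 0.259). These 2 IDs are not in the annotation that gave the symbols, and were placed by position and strand. The pseudogenes Hist1h2aj, Hist1h2al and Hist3h2bb-ps were not tested.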

How the data were processed

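The deposited transcript files hold FPKM values that the authors made with Cufflinks 2.2.1 after alignment with TopHat2 2.1.0 and Bowtie2 to mm10, per the submitters' processing notes. Neither multi-mapped reads nor use of strand is described in the sources used here. Transcript FPKM was summed by gene ID, symbols and gene types came from GENCODE M21 (GRCm38), 22 gene IDs at 0 in part of the libraries whose other values had a median of at least 100 FPKM were set apart, and each library was divided by its median ratio to the geometric means over libraries. Genes with a mean of at least 1 FPKM and a longest transcript of at least 300 bases (11339) were fitted as log2(FPKM + 1) with limma 3.58.1 in R 4.3.3, all 10 libraries in the fit and a variance trend, and Benjamini-Hochberg adjusted over all of them. Tests are two-sided. The fit was tested on simulated data. Without counts, precision rests on the spread between libraries. Genes named are Ctcf, every member called, every member with a mean of at least 1 FPKM, up to 4 genes of each list by adjusted p and genes behind a count of 5 or fewer. The members, lists and tests were chosen with earlier results of these data known. Alternatives were another pseudocount (0.1), no filter, no rescaling, no length minimum, 2 groups only, a replicate block and each library left out. Sex as a term and female libraries only were added after the data were seen.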

Additional observations from a re-analysis of the deposited data

Results flagged for a closer look

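Of 81 sets of 4 knockout values examined, over 57 tested histone genes and sums of genes, a single library lay far from the other 3 in 6. The limit used singles out about 1 in 20 sets of independent, normally distributed values. These sets share libraries, sequence and genes, so their count cannot be set against that rate. Knockout replicate 4 was high for Hist1h2bb (13.7 FPKM, others 5.90 to 7.06), for Hist1h2ap (3.05 FPKM, others 1.57 to 1.77) and for the sum of the mitosis list (88.5 FPKM, others 25.0 to 27.8). Knockout replicate 2 was high for Hist1h4m (7.16 FPKM, others 5.66 to 5.79), and low for Hist1h2ac (2.32 FPKM, others 3.57 to 3.73) and for the sum of the histone supply list (200.4 FPKM, others 212 to 213).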

How the results depend on the processing

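In 18 alternatives for the knockout comparison no call of the 34 genes changed direction, and 9 of them were called in all. Calls over all genes moved as well, from 1085 to 2273 across the settings of that comparison, with 2219 in the main fit. The 34 calls became 19 with no filter on the mean and 11 among female libraries only, and 23 to 35 with a library left out (23 without control replicate 1). The 3 TAC calls became 1 with no filter, 5 with no rescaling, 0 among female libraries only (limma; 9 higher and 2 lower at an unadjusted p under 0.05) and 1 to 5 with a library left out. The 3 calls of knockout against TAC became 0 with no filter (limma; 26 higher and 0 lower, unadjusted), 6 with no rescaling, 1 with no length minimum, 0 among female libraries only (limma; 9 higher and 0 lower, unadjusted) and 0 to 5 with a library left out. With the replicate block the counts were 28, 7 and 2. Deviations of same-numbered libraries had r from -0.36 to 0.34, over 0.1 in 4 of 9 pairs, and other pairs had r from -0.35 to 0.47. With so few libraries in a group, these values cannot tell whether libraries of the same number share a batch. Without rescaling the median of all genes in the knockout comparison shifted by 0.12, and 73.5% of all calls were higher in place of 47.9%. For TAC the share was 66.4% in place of 52.5%, and for knockout against TAC 63.9% in place of 46.0%. In the same order, calls over all genes numbered 1529 and 332 without rescaling, in place of 1637 and 361. Where a group was left with a single library, its spread was assumed to be that of the other groups. The cause of these shifts was not tested, apart from fewer libraries or more genes tested by construction. Depth is unknown, and low genes and shared reads limit the precision of single genes.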
